A study of Mus musculus with 6 samples.

Results

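The transcriptional response to switching on an oncogenic Braf was measured in mouse thyroid organoids by bulk RNA-seq of 4 libraries. Organoids given 4-hydroxytamoxifen (4OHT, 2 libraries) were set against organoids kept in the cyclic AMP analogue 8-Br-cAMP alone (cAMP, 2 libraries), and every gene with enough counts entered the comparison, 15256 of 25239 in the deposited table. All organoids came from 1 clonal mouse embryonic stem cell line, a G4 RosaLuc line that carries TRE-Nkx2-1-Pax8 together with bTg-NES-BrafV637E-ERT2, in the spelling of the labels. In this line doxycycline turns on the thyroid transcription factors Nkx2-1 and Pax8 from the Rosa26 locus. V637E in the mouse corresponds to V600E in human BRAF. A bovine thyroglobulin promoter drives Braf V637E fused to a modified estrogen receptor domain (ERT2) that keeps the kinase inactive until 4OHT binds. The fusion was therefore made in both groups, and only its activator differed. Both groups had received 1 µg/ml doxycycline for 5 days and 8-Br-cAMP for 2 weeks, and both were collected at day 31. The 4OHT group had 1 µM 4OHT for the last 5 days, on top of 8-Br-cAMP, and the cAMP group received ethanol vehicle, per the methods of the study. Each library was made from organoids enriched for follicles and pooled from several wells, and the material still held cells outside the thyroid lineage. No 4OHT-treated organoids lacking the fusion were analysed here, so the effect of Braf activation and the effect of 4OHT itself cannot be told apart. A further 2 libraries, given 4OHT with the MEK inhibitor PD0325901 and the PI3K inhibitor LY204002 (PD+LY), were not compared here. They entered the count filter that chose the tested genes, the scaling between libraries and the estimate of the spread between libraries. The libraries are named cAMP 1, cAMP 2, 4OHT 1 and 4OHT 2 after their group and replicate number.

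As background, BRAF is the kinase that carries the RAS signal to MEK and ERK, and its V600E form signals without RAS. It is the most common driver of papillary thyroid carcinoma. In thyroid follicular cells, sustained ERK signaling is known to lower the genes of iodide uptake and hormone synthesis, while cAMP, the second messenger of the TSH receptor, maintains them. ERK output is usually read from its transcriptional targets: the DUSP and SPRY feedback inhibitors, the ETS factors of the PEA3 group, the AP-1 factors and the EGF family ligands. Carcinomas of this kind also express matrix proteins, integrins and proteases that normal follicles express at low levels.

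The 4 libraries held 14898409 to 20533878 counts in genes, and 1 count was worth 0.0487 to 0.0667 CPM, the unit of all levels given, in which counts are scaled to library size with TMM factors. Libraries of 1 group differed by more than counting noise, by 10.4 (cAMP pair) and 5.43 (4OHT pair) in chi-square divided by its degrees of freedom, so none was a repeat deposit of another. Whether the replicates were separate cultures is not stated in the labels, and p-values measure the spread between these libraries. Thyroid genes and embryonic stem cell genes were both abundant in every library. Tg was at 1566 and 1022 CPM in cAMP and 514 and 693 CPM in 4OHT, and Dppa5a, a marker of undifferentiated embryonic stem cells, was at 1164 and 1131 CPM in cAMP and 1490.4 and 1402 CPM in 4OHT. Of 12 macrophage markers, Ptprc, Adgre1, C1qa, C1qb and C1qc had 0 counts in all 4 libraries, while 5 could be tested. The 12 summed to 70.9 and 71.0 CPM in cAMP and 60.7 and 69.7 CPM in 4OHT.

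At an adjusted p (edgeR quasi-likelihood test, Benjamini-Hochberg) under 0.05, 1280 genes (8.39% of those tested) differed between 4OHT and cAMP, of which 617 (4.04%) were higher and 663 (4.35%) lower in 4OHT. The 4.04% and 4.35% are the shares to set beside the calls in every gene list below. Of these, 408 genes (2.67%) also differed by at least 2-fold and are called differentially expressed genes (DEGs), 178 higher (1.17%) and 230 lower (1.51%). The median log2 fold change over all genes tested was -0.002, a value that the TMM scaling holds near 0, and 389 of the 408 DEGs were protein-coding. With 1 of the 4 libraries left out, the DEGs numbered 259 (without cAMP 1), 279 (without cAMP 2), 150 (without 4OHT 1) and 188 (without 4OHT 2). The 408 genes had the same sign in each of those fits, but they were chosen from these same libraries, so this is little support. In bulk samples, fewer cells of a type and less RNA per cell cannot be told apart, which holds for every gene named here. Gene counting ignored strand, so reads of a gene and of a gene that overlaps it on the other strand cannot be told apart either. Among the genes described here this holds for Braf, Tg, Pax8, Pou5f1, Spry1, Junb, Ereg, Bcl3, Stat3, Esrp1, Krt7, Lin28a, Otx2, Tbx3, Fgf15, Lef1, Wnt7b, Myb, Mest, Slc2a1, Cdkn1a and St8sia3.

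**Figure D1:**
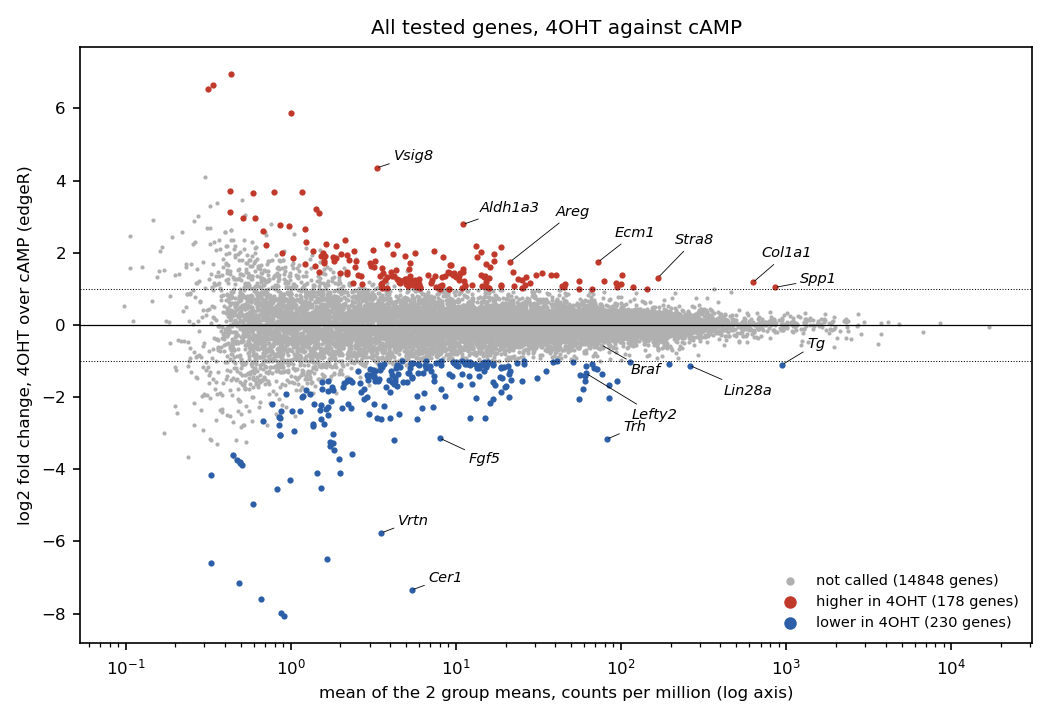
Log2 fold change of 4OHT over cAMP (edgeR, y axis) against the mean of the 2 group means in CPM (x axis, log scale) for the 15256 genes tested; red points are the 178 DEGs higher and blue points the 230 DEGs lower in 4OHT, and dotted lines mark 2-fold. The lowest labelled point is Cer1, whose fitted value depends on the prior count because both 4OHT libraries were at or under 3 counts, and Tg and Spp1 are the labelled DEGs with the highest levels.

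The Braf gene (chr6:39603237-39725463, mm10, as are the gene positions that follow) was the first to be checked, since it carries the manipulated protein. Its count may hold reads of the endogenous gene and of the fusion, which cannot be told apart here. Braf was at 95.3 and 85.5 CPM in cAMP and 61.8 and 61.4 CPM in 4OHT. Both 4OHT libraries lay under both cAMP libraries, and Braf fell (log2 fold change -0.55, SE 0.12, adjusted p = 0.0165). 4OHT acts on the protein, so this level does not test whether the kinase was active. Nkx2-1 and Pax8, whose counts may likewise hold reads of the doxycycline-driven transgenes, did not pass the test. Nkx2-1 was at 13.8 and 13.3 CPM in cAMP and 9.54 and 13.8 CPM in 4OHT (log2 fold change -0.21, SE 0.21, adjusted p = 0.595). Pax8 was at 15.2 and 15.2 CPM in cAMP and 18.5 and 20.9 CPM in 4OHT (log2 fold change 0.38, SE 0.16, adjusted p = 0.188). Among 20 tested genes of the RAS, RAF, MEK and ERK cascade itself, Braf was the only one past the test, and the median log2 fold change of that list was -0.05. With 1 library left out, the adjusted p (edgeR) rose above 0.05 for Braf (up to 0.17 without cAMP 1, 4OHT 1 or 4OHT 2).

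Genes of thyroid hormone synthesis were lower in 4OHT where they passed the test. Of 15 tested genes of hormone synthesis and iodide handling, 3 fell and 0 rose, with a median log2 fold change of -0.78 beside -0.002 for all genes. Thyroglobulin (Tg, chr15:66670753-66850721), the protein on which thyroid hormone is made, had the levels given for the tissue check. Both 4OHT libraries were below both cAMP libraries, and the 2 cAMP libraries were far apart (log2 fold change -1.10, SE 0.28, adjusted p = 0.0304, 2.14-fold lower). Slc5a5, the sodium iodide symporter, was at 6.10 and 6.87 CPM in cAMP and 2.60 and 3.84 CPM in 4OHT and fell by 2.00-fold (log2 fold change -0.999, SE 0.26, adjusted p = 0.0344).

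The receptor of thyroid stimulating hormone, Tshr, was at 6.92 and 5.41 CPM in cAMP and 1.67 and 3.95 CPM in 4OHT and missed the threshold (log2 fold change -1.10, SE 0.33, adjusted p = 0.0594). Duox2, the oxidase that supplies hydrogen peroxide for iodination, had 32 and 21 counts in cAMP and 13 and 20 counts in 4OHT and missed it too (log2 fold change -0.60, SE 0.58, adjusted p = 0.576); at these counts the difference was within the spread. None of the 5 thyroid transcription factors tested passed the edgeR threshold, with a list median of 0.09; 1 had an unadjusted p under 0.05 and 0 passed in DESeq2. Fewer of the synthesis genes passed when 1 library was left out, 1 to 2 in place of 3. For Tg the highest adjusted p of those fits was 0.291 (lost without cAMP 1, 4OHT 1 or 4OHT 2) and for Slc5a5 0.26 (lost without any 1 of the 4). Tg also missed the threshold with DESeq2 on all 6 libraries (adjusted p = 0.183).

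Feedback inhibitors of ERK were mostly lower in 4OHT among those past the test. Of 15 tested, 1 rose (6.67%, against 4.04% of all genes tested) and 4 fell (26.7%, against 4.35%). The median log2 fold change was -0.34. Il17rd, a membrane inhibitor of FGF to ERK signaling also called Sef, was at 69.6 and 61.4 CPM in cAMP and 33.4 and 35.1 CPM in 4OHT. It fell by 1.91-fold (log2 fold change -0.93, SE 0.12, adjusted p = 0.000857), with no overlap between the groups. Dusp6, the cytoplasmic phosphatase of ERK, was at 46.5 and 47.6 CPM in cAMP and 27.6 and 29.3 CPM in 4OHT and fell as well (log2 fold change -0.72, SE 0.12, adjusted p = 0.00489). Spry1, a Sprouty inhibitor of receptor signaling, was at 44.2 and 45.2 CPM in cAMP and 26.6 and 30.8 CPM in 4OHT and fell (log2 fold change -0.64, SE 0.13, adjusted p = 0.0111). Dusp9, another ERK phosphatase, rose slightly (log2 fold change 0.36, SE 0.10, adjusted p = 0.0462), and Spred2, a Sprouty-related inhibitor, fell (log2 fold change -0.39, SE 0.11, adjusted p = 0.0474). Among the 11 tested ETS factors, 1 rose and 1 fell (9.09% each, median -0.002), both of them of the PEA3 group. Etv4 was at 22.1 and 20.03 CPM in cAMP and 36.8 and 36.6 CPM in 4OHT and rose (log2 fold change 0.80, SE 0.14, adjusted p = 0.0064). Etv5 was at 526 and 469 CPM in cAMP and 339 and 343 CPM in 4OHT and fell (log2 fold change -0.54, SE 0.09, adjusted p = 0.00467). Each pair of libraries was tight for both factors and the groups did not overlap. Leave-one-out fits in edgeR took the adjusted p above 0.05 for Dusp6 (up to 0.0994 without 4OHT 1 or 4OHT 2), Spry1 (up to 0.174 without any 1 of the 4), Dusp9 (up to 0.307 without any 1 of the 4), Spred2 (up to 0.321 without any 1 of the 4), Etv4 (up to 0.0928 without cAMP 2, 4OHT 1 or 4OHT 2) and Etv5 (up to 0.0882 without cAMP 1, 4OHT 1 or 4OHT 2).

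The AP-1 factor Junb and several EGF family ligands were higher in 4OHT. Of 16 AP-1 and immediate early genes, 2 rose, Junb and Ier3, and 0 fell (median 0.35). Fos, Fosb, Fosl1, Fosl2, Jun and Jund did not pass the test. Junb, an AP-1 subunit, was at 12.01 and 21.1 CPM in cAMP and 31.6 and 35.6 CPM in 4OHT (log2 fold change 1.01, SE 0.21, adjusted p = 0.014). The list of EGF family ligands and ERBB receptors had 13 tested genes, 4 of them up and 0 down (median 0.03). Amphiregulin (Areg), a ligand of the EGF receptor, was at 10.1 and 9.50 CPM in cAMP and 30.4 and 35.5 CPM in 4OHT. Both 4OHT libraries were well above the cAMP pair, and Areg rose by 3.37-fold (log2 fold change 1.75, SE 0.17, adjusted p = 0.000119). Epiregulin (Ereg), a related ligand, was at 2.58 and 1.95 CPM in cAMP and 9.34 and 8.67 CPM in 4OHT and rose by 4.00-fold (log2 fold change 1.999, SE 0.36, adjusted p = 0.00655). Hbegf, another ligand of this family, rose less (log2 fold change 0.57, SE 0.14, adjusted p = 0.027). The receptor itself, Egfr, was at 9.94 and 11.3 CPM in cAMP and 19.8 and 21.7 CPM in 4OHT (log2 fold change 0.96, SE 0.19, adjusted p = 0.0115). Among these genes, an adjusted p (edgeR) above 0.05 arose on leaving out 1 library for Junb (up to 0.139 without cAMP 1, 4OHT 1 or 4OHT 2), Ereg (up to 0.087 without 4OHT 1 or 4OHT 2), Hbegf (up to 0.277 without any 1 of the 4) and Egfr (up to 0.129 without cAMP 1, 4OHT 1 or 4OHT 2). The log2 fold change moved by over 1.5 times across fits without 1 library for Junb (0.67 to 1.49).

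Promoter sequence was read for some of the genes that rose, and control of them by a factor that binds the motif was not tested. Below are the 250 bases before the RefSeq start of 3 genes that rose and hold an AP-1 motif there, and of Areg, which holds a cAMP response element; capitals mark the motif. Sequences are from RefSeq on GRCm38.p6 and read 5′ to 3′ on the gene's strand. Ecm1, an extracellular matrix protein, is shown from chr3:95739570-95739819 (minus strand), Plaur, the urokinase receptor, from chr7:24462233-24462482 (plus strand), Lif, leukemia inhibitory factor, from chr11:4257318-4257567 (plus strand), and Areg from chr5:91139349-91139598 (plus strand).
Ecm1: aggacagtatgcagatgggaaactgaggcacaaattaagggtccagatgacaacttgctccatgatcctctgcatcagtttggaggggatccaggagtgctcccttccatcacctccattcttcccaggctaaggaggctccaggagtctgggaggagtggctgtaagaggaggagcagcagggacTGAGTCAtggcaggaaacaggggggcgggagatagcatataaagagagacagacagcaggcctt
Plaur: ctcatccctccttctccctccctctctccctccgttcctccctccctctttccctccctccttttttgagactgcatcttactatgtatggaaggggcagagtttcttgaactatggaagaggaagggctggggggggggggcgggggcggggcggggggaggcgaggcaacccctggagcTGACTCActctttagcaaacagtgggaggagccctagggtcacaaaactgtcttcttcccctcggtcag
Lif: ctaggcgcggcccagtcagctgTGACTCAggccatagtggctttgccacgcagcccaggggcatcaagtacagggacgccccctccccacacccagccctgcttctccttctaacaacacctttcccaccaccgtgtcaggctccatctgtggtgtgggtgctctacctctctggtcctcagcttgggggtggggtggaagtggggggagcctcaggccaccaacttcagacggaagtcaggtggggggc
Areg: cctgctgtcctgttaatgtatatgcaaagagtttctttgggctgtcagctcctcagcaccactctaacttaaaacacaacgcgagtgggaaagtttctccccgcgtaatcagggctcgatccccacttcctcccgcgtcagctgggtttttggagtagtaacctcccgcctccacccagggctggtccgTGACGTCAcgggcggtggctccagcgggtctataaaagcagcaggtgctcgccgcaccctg

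The AP-1 match began 64 bases before the start in Ecm1, 69 in Plaur and 228 in Lif, and the response element of Areg 61 bases before it. Motifs were searched on both strands of those 250 bases, as TGANTCA for AP-1, TGACGTCA for the cAMP response element, CCGGAAG for ETS factors, TTCNNNGAA for STAT factors and AATNNACA for FOXH1, and no match of another motif overlapped those printed. The AP-1 motif stood in 16 of 137 promoters of DEGs higher in 4OHT (11.7%) and in 4 of 164 of DEGs lower in 4OHT (2.44%), against 4.42% of the 11974 promoters of tested genes and 6.87% of all 27025. The cAMP response element was in 2.92% of the higher, 2.44% of the lower and 2.69% of all tested promoters. The ETS motif was in 5.84% of the higher, 3.05% of the lower and 12.7% of the tested promoters. Shares of the STAT motif were 8.03%, 5.49% and 5.79% in that order, and shares of the FOXH1 motif 5.11%, 10.4% and 6.46%. The median promoter of the DEGs in either direction held 8 CpG dinucleotides and that of all tested genes 15, and a match here is a description of the letters, not of a bound site.

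**Figure D2:**
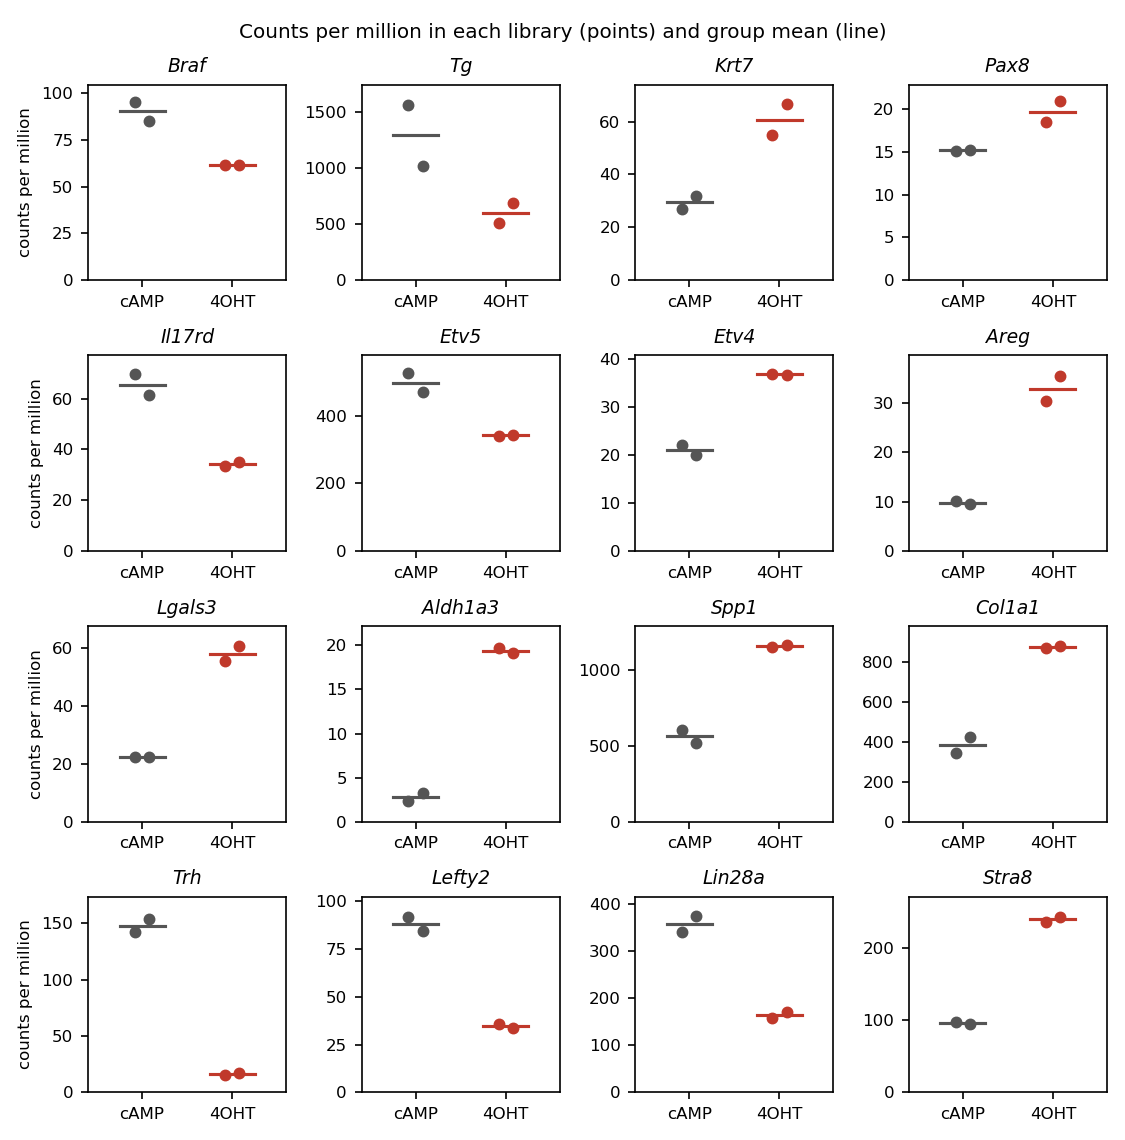
CPM (y axis, from 0) in each library (points) with the group mean (line) for 16 genes in cAMP (grey) and 4OHT (red). In each panel the 2 groups do not overlap, also for Pax8, which did not pass the test. Tg has the widest gap between its 2 cAMP libraries, and Aldh1a3 goes from 2.33 and 3.22 CPM in cAMP to 19.7 and 19.1 CPM in 4OHT.

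Markers of papillary thyroid carcinoma were mostly higher in 4OHT where they passed the test. Of 23 tested, 8 rose and 1 fell (median 0.33), and without 1 library 3 to 6 rose. Aldh1a3 (chr7:66390890-66427517), a retinaldehyde dehydrogenase, was at 2.33 and 3.22 CPM in cAMP and 19.7 and 19.1 CPM in 4OHT. Its 4OHT libraries were nearly equal and several times above cAMP, a rise of 6.91-fold (log2 fold change 2.79, SE 0.22, adjusted p = 5.26e-05). Lgals3, galectin 3, a diagnostic marker of thyroid carcinoma, was at 22.3 and 22.2 CPM in cAMP and 55.6 and 60.7 CPM in 4OHT and rose by 2.61-fold (log2 fold change 1.38, SE 0.13, adjusted p = 0.000117). Timp1, an inhibitor of matrix proteases, was at 23.02 and 27.3 CPM in cAMP and 46.9 and 46.02 CPM in 4OHT (log2 fold change 0.88, SE 0.13, adjusted p = 0.00224). Both of these genes had groups that did not overlap. Itga2, the collagen-binding integrin subunit, was at 2.20 and 0.975 CPM in cAMP and 7.01 and 7.46 CPM in 4OHT (log2 fold change 2.22, SE 0.46, adjusted p = 0.0133). Plaur, whose promoter is printed above, was at 5.98 and 8.48 CPM in cAMP and 16.2 and 14.8 CPM in 4OHT (log2 fold change 1.09, SE 0.20, adjusted p = 0.00706). Slpi, a secreted inhibitor of leukocyte proteases, rose by 2.07-fold (log2 fold change 1.05, SE 0.23, adjusted p = 0.0183). The member that fell was Nrcam, a neural cell adhesion molecule (log2 fold change -0.95, SE 0.23, adjusted p = 0.0248). Dropping 1 library lost the edgeR call, by adjusted p, for Itga2 (up to 0.119 without cAMP 2, 4OHT 1 or 4OHT 2), Plaur (up to 0.0967 without cAMP 1, 4OHT 1 or 4OHT 2), Slpi (up to 0.17 without any 1 of the 4) and Nrcam (up to 0.196 without any 1 of the 4).

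S100 proteins, small calcium-binding proteins, held 4 genes that rose and 0 that fell of 11 tested (median 0.16). S100a14 was at 3.84 and 5.65 CPM in cAMP and 19.2 and 24.6 CPM in 4OHT and rose by 4.57-fold (log2 fold change 2.19, SE 0.23, adjusted p = 0.000238). S100a6 was at 26.5 and 31.4 CPM in cAMP and 51.5 and 61.1 CPM in 4OHT (log2 fold change 0.96, SE 0.14, adjusted p = 0.00153). In both, each 4OHT library was above each cAMP library. S100a16 (log2 fold change 1.32, SE 0.23, adjusted p = 0.00498) and S100a13 (log2 fold change 0.67, SE 0.12, adjusted p = 0.00712) made up the rest. With 1 library left out, the adjusted p (edgeR) rose above 0.05 for S100a16 (up to 0.0936 without 4OHT 2) and S100a13 (up to 0.114 without cAMP 1, 4OHT 1 or 4OHT 2).

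Collagens and matricellular proteins were mostly higher in 4OHT where they passed the test. Of 31 collagen chains tested, 10 rose and 1 fell (median 0.30; 5 to 6 rose without 1 library). Col1a1, the main chain of type I collagen, was at 346 and 427 CPM in cAMP and 871 and 881 CPM in 4OHT and rose by 2.27-fold (log2 fold change 1.18, SE 0.11, adjusted p = 9.58e-05). Col3a1, the chain of type III collagen, was at 242 and 250.2 CPM in cAMP and 450.4 and 523 CPM in 4OHT (log2 fold change 0.98, SE 0.09, adjusted p = 0.000116). Col5a2, a chain of type V collagen, was at 89.7 and 100.4 CPM in cAMP and 195 and 187 CPM in 4OHT (log2 fold change 1.01, SE 0.12, adjusted p = 0.00045). The 3 had no overlap between groups, and Col1a2, Col5a3, Col5a1, Col6a1, Col7a1, Col15a1 and Col16a1 also rose. Matricellular proteins and small proteoglycans gave 8 up and 0 down of 24 (median 0.32; 2 to 6 up without 1 library). Spp1, the secreted phosphoprotein osteopontin, was at 607 and 517 CPM in cAMP and 1151 and 1161 CPM in 4OHT and rose by 2.06-fold (log2 fold change 1.04, SE 0.10, adjusted p = 0.000116). Ecm1 was at 34.2 and 32.7 CPM in cAMP and 94.6 and 129.9 CPM in 4OHT and rose by 3.36-fold (log2 fold change 1.75, SE 0.15, adjusted p = 6.39e-05). Both were among the DEGs with the largest gain in CPM. Mesenchymal and fibroblast markers gave 4 up of 15 tested, 3 of them the type I and III collagen chains above and the other Dcn, a small proteoglycan. Their summed level was 1206 and 1302 CPM in cAMP and 2229.7 and 2351 CPM in 4OHT. Without those 3 chains the markers summed to 310.3 and 286 CPM in cAMP and 308 and 337 CPM in 4OHT, so the groups overlapped.

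Matrix proteases with their inhibitors held 9 genes up and 1 down of 22 (median 0.52), and 1 to 4 up without 1 library. The rises were Mmp2, Mmp9, Mmp10, Adam8, Adamts2, Plat, Plaur, Timp1 and Timp2, and Adamts9 fell. Mmp9, a gelatinase, was at 13.6 and 9.80 CPM in cAMP and 17.3 and 22.2 CPM in 4OHT (log2 fold change 0.76, SE 0.20, adjusted p = 0.037). Mmp10, a stromelysin, was at 5.03 and 4.43 CPM in cAMP and 7.94 and 9.65 CPM in 4OHT (log2 fold change 0.90, SE 0.24, adjusted p = 0.0387). Groups were apart for both. Of 26 integrin and laminin subunits, 8 rose and 0 fell (median 0.31; 1 to 4 up without 1 library). Beside Itga2 these included Itga3, Itga5, Itga7, Itgb3, Itgb4 and Lamb2. Itga3, partner of the laminin-binding integrin beta 1, was at 102 and 98.2 CPM in cAMP and 148 and 148 CPM in 4OHT (log2 fold change 0.56, SE 0.09, adjusted p = 0.00389). Leave-one-out fits in edgeR took the adjusted p above 0.05 for Mmp9 (up to 0.336 without cAMP 2, 4OHT 1 or 4OHT 2), Mmp10 (up to 0.31 without any 1 of the 4) and Itga3 (up to 0.0698 without 4OHT 1 or 4OHT 2).

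Epithelial genes moved both ways. Of 29 keratins, claudins and junction genes, 3 rose and 6 fell (median -0.14). Krt7, a keratin of simple epithelia, was at 27.04 and 31.7 CPM in cAMP and 54.9 and 66.5 CPM in 4OHT and rose (log2 fold change 1.05, SE 0.14, adjusted p = 0.00118). Esrp1, a splicing regulator of epithelial isoforms, was at 79.1 and 84.3 CPM in cAMP and 24.7 and 37.7 CPM in 4OHT and fell (log2 fold change -1.38, SE 0.18, adjusted p = 0.000965). Cldn6, a claudin of embryonic epithelia and of embryonic stem cells, was at 79.4 and 88.7 CPM in cAMP and 35.03 and 41.03 CPM in 4OHT and fell (log2 fold change -1.14, SE 0.14, adjusted p = 0.000613). For these 3 the groups did not overlap. Cdh1, E-cadherin, was at 389 and 382 CPM in cAMP and 269 and 292 CPM in 4OHT and fell by 1.38-fold (log2 fold change -0.46, SE 0.09, adjusted p = 0.00782), and Epcam, an epithelial adhesion molecule, fell by 1.56-fold (log2 fold change -0.64, SE 0.09, adjusted p = 0.00213). Among 15 transcription factors and genes of the epithelial to mesenchymal transition, 2 rose and 1 fell (median 0.29). Grem1, a secreted BMP antagonist, rose (log2 fold change 1.09, SE 0.15, adjusted p = 0.00146), and Cdh2, N-cadherin, fell by 2.00-fold (log2 fold change -1.002, SE 0.24, adjusted p = 0.026). Among these genes, an adjusted p (edgeR) above 0.05 arose on leaving out 1 library for Cdh1 (up to 0.145 without cAMP 1, 4OHT 1 or 4OHT 2), Epcam (up to 0.0745 without 4OHT 1) and Cdh2 (up to 0.244 without cAMP 1, cAMP 2 or 4OHT 2). The log2 fold change moved by over 1.5 times across fits without 1 library for Cdh2 (-1.48 to -0.62).

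The largest rise among DEGs whose counts averaged 50 or more was in Vsig8 (chr1:172555938-172563717), a membrane protein with immunoglobulin domains. It had 6 and 5 counts in cAMP and 97 and 113 counts in 4OHT, or 0.377 and 0.244 against 6.47 and 6.20 CPM (log2 fold change 4.35, SE 0.41, adjusted p = 0.000116), a rise of 20.4-fold. Tuba3b, an alpha tubulin best known from testis, was at 5.85 and 7.70 CPM in cAMP and 26.5 and 34.6 CPM in 4OHT (log2 fold change 2.16, SE 0.19, adjusted p = 6.39e-05). Its reads may be shared with its near copy Tuba3a, so its level is uncertain. Npy, neuropeptide Y, was at 3.21 and 2.58 CPM in cAMP and 11.7 and 12.2 CPM in 4OHT (log2 fold change 2.05, SE 0.26, adjusted p = 0.000706). Rhox13, a homeobox gene of the germ line, was at 6.16 and 5.02 CPM in cAMP and 24.8 and 20.5 CPM in 4OHT (log2 fold change 2.02, SE 0.19, adjusted p = 0.000116). Bpifa1, a secreted protein of airway epithelium, was at 5.85 and 5.65 CPM in cAMP and 19.7 and 22.7 CPM in 4OHT (log2 fold change 1.89, SE 0.21, adjusted p = 0.000291). For these 5 genes each 4OHT library was above each cAMP library, and they passed in every fit without 1 library. Among DEGs, the gains in CPM were led by Spp1 and Col1a1, followed by Stra8, a retinoic acid induced gene of germ cells entering meiosis, at 97.8 and 94.9 CPM in cAMP and 236 and 243 CPM in 4OHT (log2 fold change 1.31, SE 0.11, adjusted p = 6.39e-05). Aqp3, a water and glycerol channel, was at 62.01 and 61.7 CPM in cAMP and 133 and 123 CPM in 4OHT (log2 fold change 1.05, SE 0.10, adjusted p = 9.58e-05).

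The largest falls among DEGs whose counts averaged 50 or more were in Cer1 and Vrtn. Cer1 (chr4:82881751-82885148), a secreted antagonist of Nodal, BMP and Wnt, had 104 and 308 counts in cAMP and 0 and 2 counts in 4OHT. Against a floor of 3 counts per library, Cer1 was at least 59.1-fold lower in 4OHT (adjusted p = 0.000217). Vrtn, vertnin, a regulator of vertebral number, had 104 and 151 counts in cAMP and 4 and 0 counts in 4OHT (log2 fold change -5.76, SE 0.60, adjusted p = 0.000198). Both were near absence in 4OHT, and cAMP 2 held more Cer1 than cAMP 1. Trh (chr6:92242061-92244650), thyrotropin-releasing hormone, was at 142 and 154 CPM in cAMP and 15.4 and 17.4 CPM in 4OHT. Each pair was tight, and Trh fell by 8.98-fold (log2 fold change -3.17, SE 0.13, adjusted p = 2.18e-07), the DEG with the smallest p among those named. Grp, gastrin-releasing peptide, was at 6.10 and 5.99 CPM in cAMP and 1.07 and 0.933 CPM in 4OHT and fell (log2 fold change -2.59, SE 0.34, adjusted p = 0.000965), with no overlap between its groups. Dcpp1, a secreted protein, was at 94.03 and 86.2 CPM in cAMP and 21.7 and 21.6 CPM in 4OHT (log2 fold change -2.06, SE 0.16, adjusted p = 4.76e-05), and Dcpp2 and Dcpp3 fell with it, but the 3 are near copies and their reads may be divided arbitrarily. Myrf, a membrane-bound transcription factor, was at 135 and 146 CPM in cAMP and 47.8 and 47.9 CPM in 4OHT (log2 fold change -1.55, SE 0.10, adjusted p = 2.17e-05), and Mest, an imprinted gene of mesoderm, was at 121 and 137 CPM in cAMP and 40.1 and 41.1 CPM in 4OHT (log2 fold change -1.67, SE 0.11, adjusted p = 2.17e-05). Among DEGs, the losses in CPM were led by Tg and Lin28a. The log2 fold change moved by over 1.5 times across fits without 1 library for Vrtn (-10.04 to -4.67).

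Genes of primed pluripotency, the state of the epiblast after implantation, were lower in 4OHT where they passed the test, and those of naive pluripotency, the state before it, mostly rose among those that passed. Of 20 core and primed genes, 0 rose and 11 fell (median -0.48; 6 to 9 fell without 1 library). Fgf5, the ligand that marks the epiblast, was at 11.6 and 17.2 CPM in cAMP and 1.00 and 2.19 CPM in 4OHT and fell by 8.79-fold (log2 fold change -3.14, SE 0.33, adjusted p = 0.000238). Lin28a, an RNA-binding protein that blocks let-7, was at 342 and 375 CPM in cAMP and 158 and 171 CPM in 4OHT and fell by 2.18-fold (log2 fold change -1.12, SE 0.10, adjusted p = 8.95e-05). Its paralog Lin28b was at 14.8 and 12.7 CPM in cAMP and 3.00 and 3.95 CPM in 4OHT (log2 fold change -1.97, SE 0.27, adjusted p = 0.00137). In the 3 genes the groups lay apart. Otx2, a homeobox factor of primed cells, was at 198 and 183 CPM in cAMP and 108 and 105 CPM in 4OHT (log2 fold change -0.84, SE 0.09, adjusted p = 0.000284). Dnmt3b, the de novo DNA methyltransferase, was at 286 and 292 CPM in cAMP and 161 and 143 CPM in 4OHT (log2 fold change -0.93, SE 0.11, adjusted p = 0.000466). Both of these also fell with no overlap.

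The core factors were not past the test. Pou5f1 was at 663 and 686 CPM in cAMP and 754 and 750.1 CPM in 4OHT (log2 fold change 0.16, SE 0.10, adjusted p = 0.388), Sox2 at 306 and 288 CPM in cAMP and 264 and 273 CPM in 4OHT (log2 fold change -0.15, SE 0.08, adjusted p = 0.32) and Nanog at 388 and 332 CPM in cAMP and 473 and 411 CPM in 4OHT (log2 fold change 0.30, SE 0.10, adjusted p = 0.102). Of 16 naive genes, 6 rose and 1 fell (median 0.28), and 1 to 2 rose without 1 library. Tbx3, a T-box factor of naive cells, was at 58.6 and 57.6 CPM in cAMP and 132 and 128 CPM in 4OHT and rose by 2.23-fold (log2 fold change 1.16, SE 0.10, adjusted p = 6.39e-05). Klf4, a zinc finger factor of naive cells, was at 89.1 and 88.2 CPM in cAMP and 120.4 and 119 CPM in 4OHT and rose by 1.35-fold (log2 fold change 0.43, SE 0.09, adjusted p = 0.0146). Prdm14 (log2 fold change 0.74, SE 0.12, adjusted p = 0.00414), Klf5 (log2 fold change 0.45, SE 0.10, adjusted p = 0.0185), Tfcp2l1 (log2 fold change 0.38, SE 0.10, adjusted p = 0.0437) and Dppa5a (log2 fold change 0.33, SE 0.08, adjusted p = 0.0224) were the others, and Nr0b1, an orphan nuclear receptor, fell (log2 fold change -0.74, SE 0.15, adjusted p = 0.0121). Dropping 1 library lost the edgeR call, by adjusted p, for Klf4 (up to 0.148 without any 1 of the 4), Prdm14 (up to 0.0618 without 4OHT 1 or 4OHT 2), Klf5 (up to 0.2 without any 1 of the 4), Tfcp2l1 (up to 0.276 without any 1 of the 4), Dppa5a (up to 0.211 without any 1 of the 4) and Nr0b1 (up to 0.165 without cAMP 1, 4OHT 1 or 4OHT 2).

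**Figure D3:**
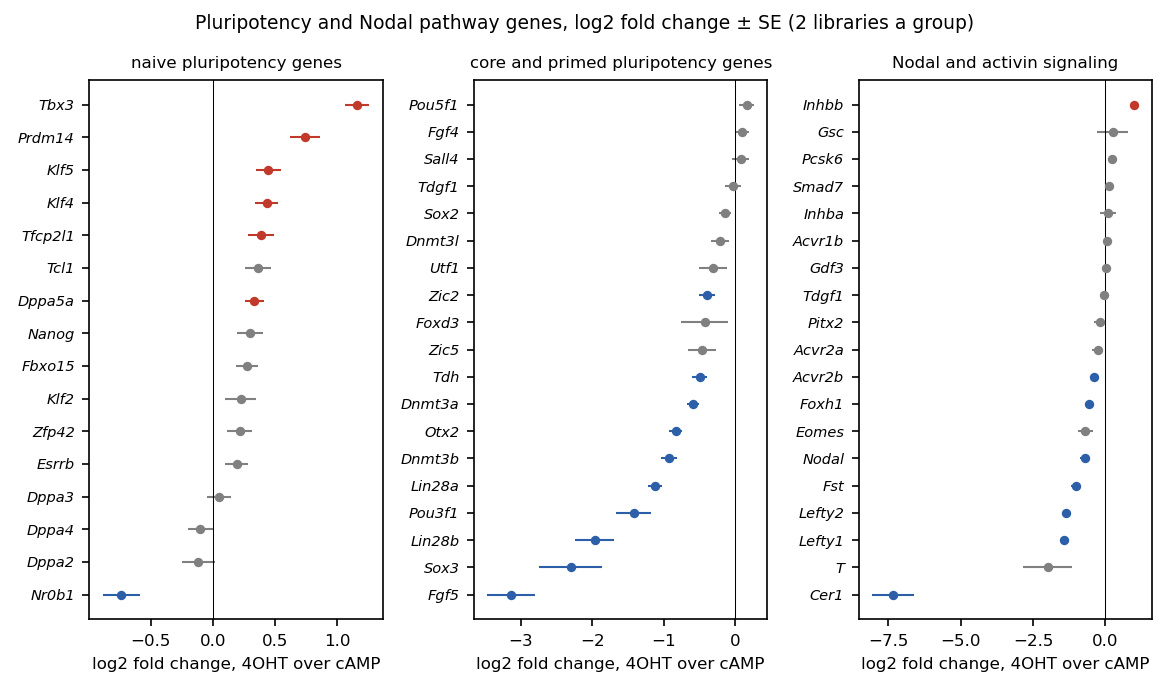
Log2 fold change of 4OHT over cAMP (x axis, edgeR, bars are 1 SE) of members of 3 gene lists, 1 panel a list and each with its own x range; red points rose and blue points fell at an adjusted p under 0.05, grey points did not pass, and not every tested member is drawn. Primed genes such as Fgf5 and Lin28b lie left of 0, Tbx3 lies right of 0 among the naive genes, and Lefty1 and Lefty2 lie left of 0 beside Cer1.

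Ligands and antagonists of Nodal, FGF and Wnt signaling were mostly lower in 4OHT among those past the test. Nodal is the TGF-beta ligand that sustains primed pluripotency and patterns the embryo, and Lefty1 and Lefty2 are its targets and its antagonists. Of 19 genes of this pathway, 1 rose and 7 fell (median -0.27; 3 to 5 fell without 1 library), and Cer1 lies below that median at its bound too. Lefty2 was at 91.95 and 84.7 CPM in cAMP and 36.03 and 33.6 CPM in 4OHT and fell by 2.54-fold (log2 fold change -1.34, SE 0.11, adjusted p = 6.39e-05). Lefty1 was at 80.6 and 95.4 CPM in cAMP and 30.02 and 36.04 CPM in 4OHT and fell by 2.66-fold (log2 fold change -1.41, SE 0.14, adjusted p = 0.000124). The groups were well apart for both. Nodal itself was at 33.3 and 32.2 CPM in cAMP and 19.3 and 20.95 CPM in 4OHT (log2 fold change -0.70, SE 0.16, adjusted p = 0.0226), and Inhbb, a subunit of activin, was the member that rose (log2 fold change 0.998, SE 0.15, adjusted p = 0.00271). With 1 library left out, the adjusted p (edgeR) rose above 0.05 for Nodal (up to 0.211 without any 1 of the 4) and Inhbb (up to 0.0631 without 4OHT 2).

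FGF ligands and receptors held 0 genes up and 5 down of 15 (median -0.12; 2 to 5 down without 1 library). Fgf15, an FGF of the embryonic midline and gut, was at 10.8 and 13.4 CPM in cAMP and 2.80 and 2.19 CPM in 4OHT (log2 fold change -2.28, SE 0.27, adjusted p = 0.000555). Fgf8, a ligand of gastrulation, was at 1.57 and 4.68 CPM in cAMP and 0.267 and 0.384 CPM in 4OHT (log2 fold change -3.24, SE 0.63, adjusted p = 0.00936), and Fgf17, its close relative, fell with it (log2 fold change -2.20, SE 0.41, adjusted p = 0.00755). Levels of Fgf8 and Fgf17 in 4OHT were close to the counting floor. Of 27 Wnt genes, 1 rose and 5 fell (median -0.44; 1 to 2 fell without 1 library). Lef1, a transcription factor and target of Wnt, was at 31.3 and 30.1 CPM in cAMP and 7.27 and 11.7 CPM in 4OHT and fell by 3.21-fold (log2 fold change -1.68, SE 0.20, adjusted p = 0.000512). Wnt3, a ligand of gastrulation, fell (log2 fold change -2.38, SE 0.61, adjusted p = 0.0342), and Wnt7b, a ligand of epithelia, rose (log2 fold change 0.79, SE 0.18, adjusted p = 0.0202). BMP signaling gave 1 up (4.76%) and 2 down (9.52%) of 21 (median -0.07). The Notch pathway gave 1 up (5.88%) and 3 down (17.6%) of 17 (median -0.47). Of all genes tested, 4.04% were up and 4.35% down. Notch4, the endothelial Notch receptor, was at 15.8 and 16.5 CPM in cAMP and 4.40 and 5.81 CPM in 4OHT (log2 fold change -1.65, SE 0.23, adjusted p = 0.00144). Leave-one-out fits in edgeR took the adjusted p above 0.05 for Fgf8 (up to 0.115 without cAMP 2, 4OHT 1 or 4OHT 2), Fgf17 (up to 0.105 without cAMP 2, 4OHT 1 or 4OHT 2), Wnt3 (up to 0.249 without any 1 of the 4) and Wnt7b (up to 0.218 without cAMP 1, 4OHT 1 or 4OHT 2). The log2 fold change moved by over 1.5 times across fits without 1 library for Wnt3 (-3.63 to -1.79).

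Retinoic acid is made from retinaldehyde by the ALDH1A enzymes and broken down by the CYP26 enzymes. Of 18 genes tested, 1 rose and 6 fell (median -0.13; 1 to 5 fell without 1 library). The rise was Aldh1a3. Aldh1a1, another enzyme of the same step, was at 15.2 and 12.3 CPM in cAMP and 6.20 and 6.36 CPM in 4OHT and fell (log2 fold change -1.12, SE 0.20, adjusted p = 0.00655). Cyp26a1 was at 20.1 and 21.7 CPM in cAMP and 11.1 and 9.60 CPM in 4OHT and fell (log2 fold change -1.02, SE 0.17, adjusted p = 0.00411). Crabp2, a cellular retinoic acid binding protein, was at 20.5 and 21.1 CPM in cAMP and 10.7 and 8.34 CPM in 4OHT and fell (log2 fold change -1.13, SE 0.17, adjusted p = 0.00249). In the 3 genes the groups did not overlap. Stra6, the cell surface receptor of the vitamin A carrier, fell by 1.43-fold (log2 fold change -0.51, SE 0.14, adjusted p = 0.038). Among these genes, an adjusted p (edgeR) above 0.05 arose on leaving out 1 library for Aldh1a1 (up to 0.0949 without cAMP 1, 4OHT 1 or 4OHT 2), Cyp26a1 (up to 0.0834 without 4OHT 2), Crabp2 (up to 0.0582 without 4OHT 2) and Stra6 (up to 0.316 without cAMP 2, 4OHT 1 or 4OHT 2). The log2 fold change moved by over 1.5 times across fits without 1 library for Stra6 (-0.68 to -0.31).

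Cytokines of the LIF family and their targets rose in part. LIF signals through STAT3, induces SOCS3 as its feedback inhibitor, and keeps mouse embryonic stem cells undifferentiated. Of 18 genes, 6 rose and 1 fell (median 0.31; 3 to 5 rose without 1 library). Lif was at 11.5 and 12.6 CPM in cAMP and 23.6 and 27.5 CPM in 4OHT (log2 fold change 1.09, SE 0.17, adjusted p = 0.0027). Socs3 was at 77.8 and 77.8 CPM in cAMP and 153 and 167 CPM in 4OHT (log2 fold change 1.04, SE 0.10, adjusted p = 0.000116) and Bcl3, a nuclear cofactor of NF-kB, at 12.7 and 15.4 CPM in cAMP and 31.7 and 35.9 CPM in 4OHT (log2 fold change 1.26, SE 0.15, adjusted p = 0.000512). The groups did not overlap for these 3 genes. Stat3 rose by 1.39-fold (log2 fold change 0.48, SE 0.09, adjusted p = 0.00822), and Il6st, the shared receptor chain gp130, fell by 1.26-fold (log2 fold change -0.33, SE 0.09, adjusted p = 0.0493). NF-kB and inflammatory genes gave 3 up and 0 down of 20 (median 0.27; 0 to 1 up without 1 library), with Ptgs2, cyclooxygenase 2, at 24.5 and 19.6 CPM in cAMP and 32.5 and 42.3 CPM in 4OHT (log2 fold change 0.77, SE 0.21, adjusted p = 0.0406). Dropping 1 library lost the edgeR call, by adjusted p, for Lif (up to 0.0606 without 4OHT 2), Stat3 (up to 0.124 without cAMP 2, 4OHT 1 or 4OHT 2), Il6st (up to 0.305 without any 1 of the 4) and Ptgs2 (up to 0.343 without any 1 of the 4).

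Targets of ATF4, the factor of the amino acid and unfolded protein responses, held 11 genes up and 2 down of 21 (median 0.35; 2 to 5 up without 1 library). Nupr1, a small stress-induced nuclear protein, was at 26.7 and 30.5 CPM in cAMP and 58.6 and 66.6 CPM in 4OHT and rose by 2.19-fold (log2 fold change 1.13, SE 0.13, adjusted p = 0.000373). Trib3, a pseudokinase, was at 19.4 and 24.3 CPM in cAMP and 37.4 and 39.1 CPM in 4OHT (log2 fold change 0.81, SE 0.14, adjusted p = 0.00626). Chac1, which breaks down glutathione, was at 5.09 and 6.48 CPM in cAMP and 9.87 and 13.3 CPM in 4OHT (log2 fold change 1.000, SE 0.23, adjusted p = 0.0191). Each of these genes was higher in both 4OHT libraries. Slc7a3, a cationic amino acid transporter, was at 86.5 and 88.7 CPM in cAMP and 52.6 and 49.9 CPM in 4OHT and fell (log2 fold change -0.78, SE 0.11, adjusted p = 0.00123). With 1 library left out, the adjusted p (edgeR) rose above 0.05 for Trib3 (up to 0.0834 without cAMP 1, 4OHT 1 or 4OHT 2) and Chac1 (up to 0.235 without cAMP 1, 4OHT 1 or 4OHT 2).

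Glycolytic and hypoxia genes were lower in 4OHT where they passed the test, by under 2-fold each. Of 25, 0 rose and 11 fell (median -0.26; 1 to 8 fell without 1 library). Pdk1, the kinase that restrains pyruvate dehydrogenase, was at 219 and 212 CPM in cAMP and 110.3 and 117 CPM in 4OHT and fell by 1.90-fold (log2 fold change -0.92, SE 0.09, adjusted p = 0.000149). Slc2a1, the glucose transporter GLUT1, was at 1423 and 1511 CPM in cAMP and 876 and 1118 CPM in 4OHT (log2 fold change -0.56, SE 0.11, adjusted p = 0.0111). Ldha, lactate dehydrogenase, was at 1407 and 1479 CPM in cAMP and 962 and 1171 CPM in 4OHT (log2 fold change -0.44, SE 0.10, adjusted p = 0.0191). The 3 had no overlap between groups, and the others that fell were Bnip3, Egln3, Eno1, Gapdh, Pfkl, Pgk1, Pkm and Slc2a3. Leave-one-out fits in edgeR took the adjusted p above 0.05 for Slc2a1 (up to 0.153 without cAMP 2 or 4OHT 1) and Ldha (up to 0.245 without cAMP 1, cAMP 2 or 4OHT 1).

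CDK inhibitors were higher in 4OHT where they passed the test. Of 18 G1 cyclins and CDK inhibitors, 5 rose (27.8%, against 4.04% of all genes tested) and 0 fell (median 0.14; 0 to 2 rose without 1 library). Cdkn2b, the CDK4 and CDK6 inhibitor p15, was at 5.53 and 6.38 CPM in cAMP and 11.4 and 11.4 CPM in 4OHT (log2 fold change 0.93, SE 0.22, adjusted p = 0.022), Cdkn2a, whose locus encodes p16 and p19, at 5.60 and 5.17 CPM in cAMP and 10.1 and 8.17 CPM in 4OHT (log2 fold change 0.76, SE 0.20, adjusted p = 0.0398) and Cdkn1a, the p53 target p21, at 79.8 and 91.9 CPM in cAMP and 123 and 134 CPM in 4OHT (log2 fold change 0.58, SE 0.11, adjusted p = 0.0067). The inhibitors were higher in both 4OHT libraries. Of 24 replication and mitosis genes, 0 rose and 1 fell (median -0.07). Of 21 genes of MYC and ribosome biogenesis, 0 rose and 1 fell (median -0.13), and 18 had a log2 fold change below 0. Of 22 p53 targets, 2 rose (9.09%, against 4.04% of all genes tested) and 0 fell (median 0.18). Among these genes, an adjusted p (edgeR) above 0.05 arose on leaving out 1 library for Cdkn2b (up to 0.156 without any 1 of the 4), Cdkn2a (up to 0.298 without any 1 of the 4) and Cdkn1a (up to 0.108 without cAMP 1, 4OHT 1 or 4OHT 2).

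Since the organoids held several lineages, markers of other cell types were read one list at a time. Endothelial markers gave 1 up and 6 down of 16 (median -0.58; 1 to 4 down without 1 library), with a summed level of 402 and 422 CPM in cAMP and 385 and 389.6 CPM in 4OHT. Kdr, the VEGF receptor, was at 9.94 and 10.7 CPM in cAMP and 1.53 and 2.58 CPM in 4OHT and fell by 4.95-fold (log2 fold change -2.31, SE 0.29, adjusted p = 0.000688). Cdh5, VE-cadherin, was at 8.37 and 7.55 CPM in cAMP and 2.87 and 2.85 CPM in 4OHT and fell by 2.77-fold (log2 fold change -1.47, SE 0.24, adjusted p = 0.00381). Tie1, an endothelial receptor kinase, had 54 and 69 counts in cAMP and 4 and 6 counts in 4OHT and fell (log2 fold change -3.46, SE 0.53, adjusted p = 0.00249). The member that rose was Pecam1, at 135 and 128 CPM in cAMP and 171 and 168 CPM in 4OHT (log2 fold change 0.36, SE 0.09, adjusted p = 0.0271), which embryonic stem cells express as well. Dropping 1 library lost the edgeR call, by adjusted p, for Cdh5 (up to 0.0638 without 4OHT 1 or 4OHT 2), Tie1 (up to 0.0512 without 4OHT 1) and Pecam1 (up to 0.211 without any 1 of the 4).

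Embryonic globins, made by primitive red cells, were near absence in 4OHT. Of 8 erythroid and blood markers tested, 4 fell and 0 rose (2 to 4 fell without 1 library), and their summed level was 13.3 and 14.3 CPM in cAMP and 4.804 and 5.16 CPM in 4OHT. The adult globins Hba-a1, Hbb-bs and Hbb-bt had 0 counts in all 4 libraries. A stricter filter of at least 10 counts in each of the 4 libraries left 1 gene of this list, with a log2 fold change of 0.71 and 0 calls. Genes absent from 4OHT can enter the test only through other libraries, so the filter partly sets the direction of these calls. Hba-x had 28 and 39 counts in cAMP and 0 and 0 counts in 4OHT, and was at least 10.04-fold lower in 4OHT against the floor of 3 counts per library (adjusted p = 0.00311). Hbb-bh1 had 40 and 83 counts in cAMP and 0 and 1 counts in 4OHT and was at least 17.99-fold lower (adjusted p = 0.000627). Tal1, the master factor of blood and endothelium, had 48 and 50 counts in cAMP and 2 and 3 counts in 4OHT and was at least 14.96-fold lower (adjusted p = 0.00291). With 1 library left out, the adjusted p (edgeR) rose above 0.05 for Tal1 (up to 0.0521 without 4OHT 1).

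Neural markers were lower in 4OHT where they passed the test. Of 14 neural progenitor markers, 0 rose and 4 fell (median -1.09; 2 to 3 fell without 1 library), and the summed level was 436 and 413 CPM in cAMP and 346 and 358 CPM in 4OHT. Most of that sum was Sox2, also a core pluripotency factor, at 306 and 288 CPM in cAMP and 264 and 273 CPM in 4OHT. Over the 10 progenitor markers with at least 10 counts in each of the 4 libraries, the median was -0.60. Sox11, a factor of young neurons, was at 27.3 and 24.95 CPM in cAMP and 6.74 and 9.76 CPM in 4OHT and fell by 3.14-fold (log2 fold change -1.65, SE 0.20, adjusted p = 0.000566). Sox3, a factor of neural progenitors and of the epiblast, was at 3.40 and 3.41 CPM in cAMP and 0.400 and 0.933 CPM in 4OHT (log2 fold change -2.31, SE 0.44, adjusted p = 0.00897). Of 16 synaptic and neuron markers, 0 rose and 5 fell (median -0.66; 2 to 3 fell without 1 library), with a summed level of 203 and 196 CPM in cAMP and 166 and 173 CPM in 4OHT. Cacna1b, a presynaptic calcium channel, was at 8.62 and 9.94 CPM in cAMP and 2.54 and 2.19 CPM in 4OHT (log2 fold change -1.98, SE 0.26, adjusted p = 0.000965). Kif1a, a motor of synaptic vesicles that is not in that list, was at 109.6 and 111 CPM in cAMP and 41.8 and 43.6 CPM in 4OHT (log2 fold change -1.36, SE 0.11, adjusted p = 6.39e-05). In both, the 4OHT pair was below the cAMP pair. Of 32 semaphorin, ephrin and other guidance genes, 1 rose and 7 fell (median -0.14; 2 to 5 fell without 1 library), with Efnb2, an ephrin ligand of vessels and neurons, at 41.95 and 48.7 CPM in cAMP and 16.2 and 16.5 CPM in 4OHT (log2 fold change -1.47, SE 0.14, adjusted p = 0.000119) and Ntn1, netrin 1, at 28.1 and 26.4 CPM in cAMP and 11.1 and 13.1 CPM in 4OHT (log2 fold change -1.17, SE 0.16, adjusted p = 0.0013). Leave-one-out fits in edgeR took the adjusted p above 0.05 for Sox3 (up to 0.11 without 4OHT 1).

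Germ cell and placode markers held 6 genes up and 1 down of 12 (median 0.88; 3 to 4 up without 1 library), and their summed level was 169 and 153 CPM in cAMP and 327 and 305 CPM in 4OHT. Dazl, an RNA-binding protein of germ cells, was at 60.8 and 51.6 CPM in cAMP and 159.7 and 134 CPM in 4OHT and rose by 2.61-fold (log2 fold change 1.39, SE 0.13, adjusted p = 0.000119). Hesx1, a homeobox factor of the anterior placode that embryonic stem cells express too, was at 22.1 and 19.7 CPM in cAMP and 52.9 and 55.3 CPM in 4OHT (log2 fold change 1.37, SE 0.13, adjusted p = 0.000119). Mael, a germ line protein of the piRNA pathway, was at 12.5 and 10.7 CPM in cAMP and 20.1 and 23.9 CPM in 4OHT (log2 fold change 0.93, SE 0.16, adjusted p = 0.00598). Together with Stra8, Rhox13 and Tuba3b, these were higher in both 4OHT libraries. Among these genes, an adjusted p (edgeR) above 0.05 arose on leaving out 1 library for Mael (up to 0.102 without cAMP 2 or 4OHT 2).

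Markers of the remaining lineages were read in the same way. Of 9 cardiomyocyte markers, 2 rose (22.2%, against 4.04% of all genes tested) and 0 fell, with a summed level of 38.1 and 37.7 CPM in cAMP and 63.2 and 64.9 CPM in 4OHT. Actn2, an alpha-actinin of the sarcomere, was at 12.6 and 11.2 CPM in cAMP and 33.4 and 31.9 CPM in 4OHT (log2 fold change 1.46, SE 0.14, adjusted p = 0.000116). Most of the gain in the cardiomyocyte sum was Actn2. The list median was 0.44, and -0.05 over the 7 genes with at least 10 counts in each of the 4 libraries. No gene passed among 12 lung epithelium markers (median 0.18), 15 endoderm markers (median -0.36), 16 smooth muscle genes (median -0.05), 5 macrophage markers that could be tested (median 0.15) and 4 genes of X inactivation (median -1.14) in edgeR. At an unadjusted p under 0.05 these lists held 0, 4, 5, 0 and 3 genes in that order, and past the adjusted p of DESeq2 0 each with 6 libraries and 0, 0, 2, 0 and 2 with the 4 compared. Lung epithelium shares Nkx2-1 with thyroid, and its markers summed to 323 and 300.2 CPM in cAMP and 330.4 and 363 CPM in 4OHT.

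**Figure D4:**
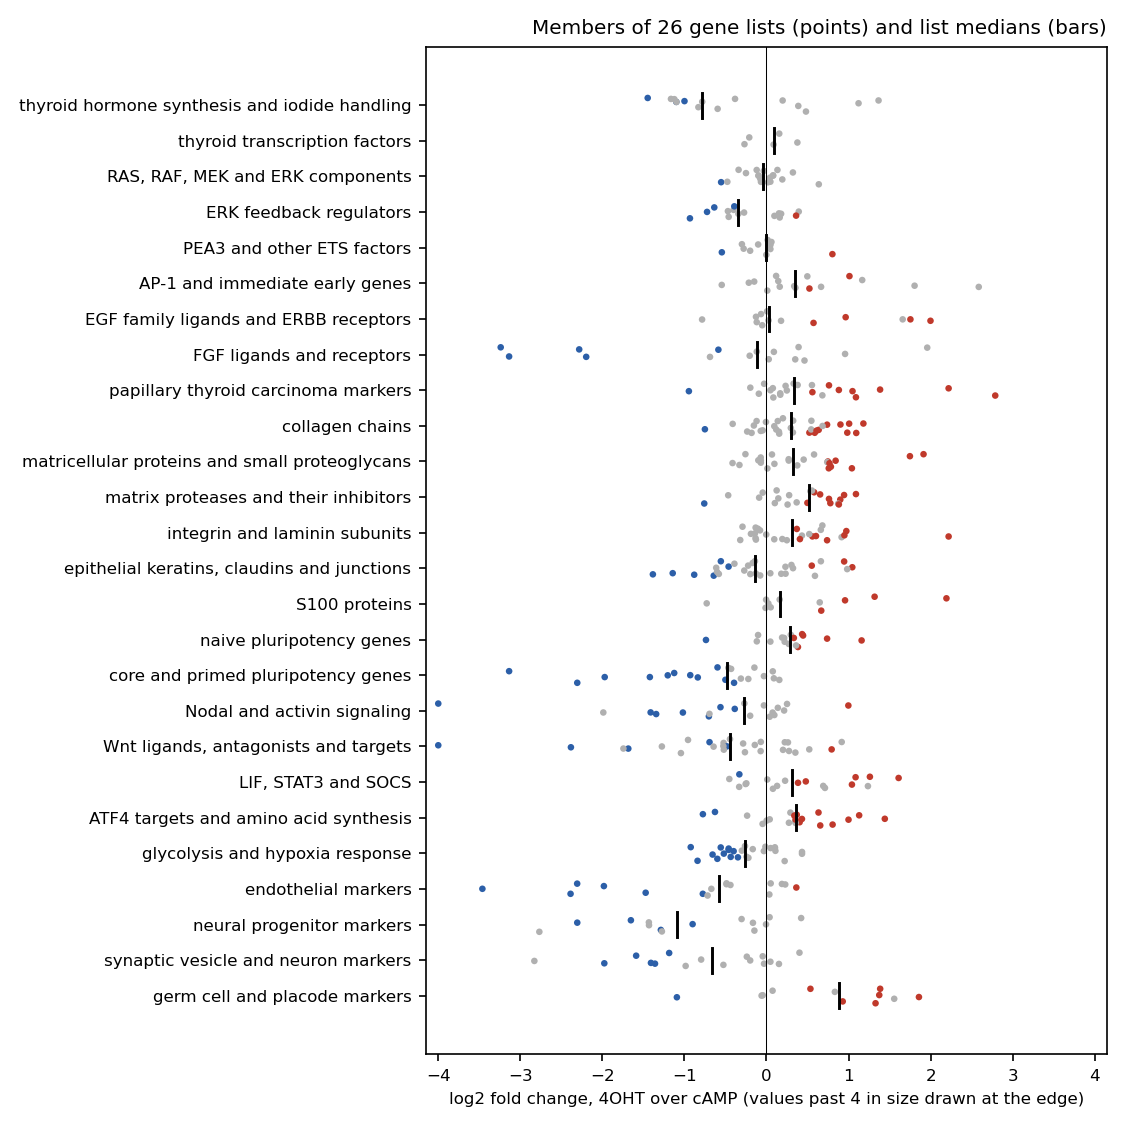
Log2 fold change of 4OHT over cAMP (x axis, edgeR) of every tested gene (points) in 26 gene lists, with the list median (bar); red points rose and blue points fell at an adjusted p under 0.05, grey points did not pass, and Cer1 and Wnt8a are drawn at the left edge. The medians of collagens, proteases and integrins lie right of 0 and those of primed pluripotency and neural progenitor genes left of 0.

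Since 8-Br-cAMP was present in both groups and the fusion carries an estrogen receptor domain, genes of those pathways were read as well. Of 24 genes of the cAMP pathway, 3 rose and 0 fell (median 0.11). Sik1, a kinase induced by CREB, was at 145 and 156 CPM in cAMP and 277 and 277 CPM in 4OHT and rose (log2 fold change 0.88, SE 0.10, adjusted p = 0.000265). Of 15 estrogen response genes, 0 rose and 3 fell (median -0.25). The fall in Myb, a transcription factor of progenitors, was by 4.46-fold, with levels of 25.8 and 26.9 CPM in cAMP and 6.34 and 5.49 CPM in 4OHT (log2 fold change -2.16, SE 0.17, adjusted p = 5.52e-05). Of 7 targets of the aryl hydrocarbon receptor, 0 passed in edgeR (median -0.01), 2 had an unadjusted p under 0.05, and 0 and 1 passed in DESeq2 with 6 and with 4 libraries. The last lists held 0 to 3 calls in each direction. YAP and TEAD targets had 1 up of 14 (7.14%), and MHC class I and interferon genes 2 up and 1 down of 21 (9.52% and 4.76%). Sterol and fatty acid synthesis had 1 up and 1 down of 27 (3.7% each). NRF2 targets had 1 up and 3 down of 15 (6.67% and 20%, against 4.04% and 4.35% of all genes tested).

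A few further genes lay at or under 3 counts in both libraries of 1 group while both of the other held at least 20. Lhx1, a homeobox factor of mesoderm and organizer, had 32 and 78 counts in cAMP and 2 and 2 counts in 4OHT and was at least 15.9-fold lower in 4OHT (adjusted p = 0.00264). Adgrl4, an endothelial adhesion receptor, had 35 and 26 counts in cAMP and 0 and 0 counts in 4OHT and was at least 9.51-fold lower (adjusted p = 0.0063). Jakmip2 had 23 and 35 counts in cAMP and 2 and 0 counts in 4OHT and was at least 8.64-fold lower (adjusted p = 0.0125), and St8sia3, a sialyltransferase, had 20 and 28 counts in cAMP and 0 and 0 counts in 4OHT and was at least 7.19-fold lower (adjusted p = 0.00844). In the other direction, Ccr1, a chemokine receptor, had 0 and 1 counts in cAMP and 21 and 47 counts in 4OHT and was at least 11.9-fold higher (adjusted p = 0.00457). Dropping 1 library lost the edgeR call, by adjusted p, for Lhx1 (up to 0.0506 without 4OHT 2), Adgrl4 (up to 0.0625 without 4OHT 1 or 4OHT 2), Jakmip2 (up to 0.13 without cAMP 2, 4OHT 1 or 4OHT 2), St8sia3 (up to 0.0817 without 4OHT 1 or 4OHT 2) and Ccr1 (up to 0.0625 without 4OHT 2).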

How the data were processed

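The values used were raw read counts per gene symbol, which the authors deposited after trimming with Trimmomatic, alignment to mm10 with HISAT2 and strand-blind gene counting with HTSeq (versions not given in the sources used here). Counts were summed to 14898409 to 20533878 per library in the 4 libraries compared. All 6 libraries, in 3 groups of 2, were fitted together in edgeR 4.0.16 (R 4.3.3) with filterByExpr (minimum count 10, minimum total 15), TMM factors and the quasi-likelihood test of 4OHT against cAMP, with Benjamini-Hochberg adjustment over 15256 genes; the common biological coefficient of variation was 0.105. DEGs had an adjusted p under 0.05 and at least 2-fold. An exact permutation test of 2 against 2 libraries cannot go below p = 0.3333, so none was used. Levels are TMM-scaled CPM computed from the counts.

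Genes were named by rule: the construct genes and Tg, the 15 DEGs in each direction with the largest fold among those with a mean of at least 50 counts, the 10 with the largest CPM difference, list members past the test (at most 6 a direction) with the first 3 of each list, and genes at or under 3 counts in both libraries of 1 group with at least 20 in both of the other; members outside this rule that are named were chosen after their values were seen. The gene lists, the comparison and the promoter motifs were chosen with earlier results of these data known. Alternatives were DESeq2 1.42.0 (888 adjusted p given as NA stay NA), RLE factors, other filters, the 4 libraries alone, a replicate block and each library left out. The fits were also run on simulated counts in which only well-counted genes were changed. That outcome is not reported here and does not bear on genes near the floor. Gene positions are from GENCODE M21, in which 24366 of 25239 symbols were found, and promoters from RefSeq. Some genes that the rule names are not reported here.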

Additional observations from a re-analysis of the deposited data

How the results depend on the processing

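The number of DEGs ranged from 150 to 279 (main value 408) when 1 of the cAMP or 4OHT libraries was left out and was 484 and 483 without a PD+LY library, the number of higher genes from 72 to 211 (178) and of lower genes from 78 to 274 (230), and the number of genes past an adjusted p of 0.05 from 194 to 2263 (1280). With the fold threshold dropped, 1280 genes were called. The genes past the adjusted p numbered 2269 with only the 4 libraries compared and 2186 with no filter. A replicate block gave 513 DEGs and 2373 genes past the adjusted p. No source used here ties the replicate numbers to a shared batch. Deviations of same-numbered libraries correlated at 0.113 (cAMP and 4OHT), 0.3334 (cAMP and PD+LY) and 0.0848 (4OHT and PD+LY). The other settings, DESeq2, RLE factors and a filter of 10 counts in each of the 4 libraries, gave 344 to 405 DEGs, and the cause of the differences was not tested. All 123 called genes named with a fold change had the same sign in every one of 13 alternatives in which they were fitted, 60 passed the test without any 1 of the 4 libraries, and 118 passed in all of the other 9. The exceptions among the latter were Tg (adjusted p = 0.183) and Mmp10 (0.067) with DESeq2 on 6 libraries, Junb (0.0692) and Cdkn2a (0.0579) with DESeq2 on 4 libraries, and Il6st (0.0517) with RLE factors. The called genes were chosen from these same libraries, so their shared sign is little support. Nkx2-1, not past the test, ranged from -0.50 to 0.032 with 1 library left out and so changed sign. Of 51 list medians, 40 kept their sign in all 13 alternatives; those of the RAS to ERK, ETS, FGF, epithelial, YAP, BMP, aryl hydrocarbon receptor, smooth muscle, cardiomyocyte, macrophage and erythroid lists did not. With 2 libraries a group, a difference that misses the threshold is not shown to be absent, and counts of a few reads limit genes near the floor.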

Other observations

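The DEGs were spread over the genome unevenly in number. On chromosome X, 570 genes were tested, of which 2.98% were DEGs higher and 4.39% DEGs lower in 4OHT, against 1.17% and 1.51% of all genes, and the median log2 fold change there was -0.12 against -0.002 for all genes. On chromosome 18, 0.525% were higher and 3.15% lower.

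Btbd18, a germ line factor of piRNA loci, was among the 15 largest rises of DEGs whose counts averaged 50 or more. It was at 2.01 and 2.14 CPM in cAMP and 7.41 and 8.17 CPM in 4OHT and rose (log2 fold change 1.90, SE 0.25, adjusted p = 0.000965), and it passed in edgeR without any 1 of the 4 libraries.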
